A study of Mus musculus with 15 samples.

Results

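Splicing factor and hnRNP genes were described in 2 Zscan4 experiments in the mouse. They were taken by symbol, as every gene named Srsf, Hnrnp, Sf3a, Sf3b, Snrp or U2af followed by its letters or number. This group of symbols was chosen with earlier results of these data known. This gave 55 genes: 11 SR protein genes (Srsf), 20 hnRNP genes (Hnrnp) and 9 genes of the SF3A and SF3B complexes (Sf3a and Sf3b). The others were 13 Snrp genes, called snRNP genes below, and 2 genes of the U2 auxiliary factor (U2af). Of the Snrp genes, Snrpert is annotated as a processed pseudogene, and 55.7% of its exonic 50-base words also occur in other loci, mainly Snrpe. The stem cell table lists 54 of them among 51627 genes, and the embryo table lists 55 among 53564; Hnrnpd was analysed only in embryos. RNA-Seq was done on mouse embryonic stem cells (ESCs) of the line J1, kept without feeders, and on 2-cell embryos. The ESC groups were 2 wild-type control libraries and 2 labelled Zscan4 OE, for overexpression of Zscan4, a zinc finger gene family that is active at the 2-cell stage and in a few ESCs at a time. The embryo groups were 5 wild-type control libraries and 6 labelled Zscan4 RNAi. Both ESC groups carry the same passage label (PN+8). How Zscan4 was overexpressed or silenced, how many clones, cultures or embryos a library holds, and what the controls received are not given in the labels. The labels also name genomic DNA as the library source, while the titles say RNA-Seq and the values are counts per gene.

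Splicing removes introns from precursor mRNA on the spliceosome, which is built from small nuclear RNAs and proteins. The U1 snRNP marks the 5′ splice site, the U2AF dimer reads the 3′ splice site, and the U2 snRNP with its SF3A and SF3B complexes holds the branch point; a ring of Sm proteins forms the core of most of these particles. SR proteins bind exons and mostly favour the use of nearby sites, hnRNP proteins coat the transcript and often oppose them, and many SR and hnRNP genes tune their own mRNA through isoforms that nonsense-mediated decay removes. In the mouse 2-cell embryo stored maternal mRNA is cleared while the embryo's own genome is switched on, so a transcript there can be inherited or newly made.

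Promoter sequence is shown for 6 genes on which the results below turn: Srsf1, Sf3b6, U2af1, Srsf7 and Hnrnpu, which were lower in the RNAi embryos under every setting tried, and Srsf6, which passed the test in both experiments. They were picked after their values were seen. Each runs 5′ to 3′ on the gene's strand within the 250 bases before the transcription start listed by RefSeq (GRCm38.p6), keeping only the stretch outside exons of protein-coding genes, so the shorter ones were clipped. Capitals mark the letters GGGCGG, the SP1 box, or CCGGAAG, the core bound by ETS factors, on either strand, where the 2 may overlap. The Srsf1 stretch is chr11:88047123-88047372 (plus strand), the Sf3b6 stretch chr12:4817358-4817543 (plus), the U2af1 stretch chr17:31658893-31659004 (minus), the Srsf7 stretch chr17:80207308-80207459 (minus), the Hnrnpu stretch chr1:178337816-178338065 (minus) and the Srsf6 stretch chr2:162931258-162931507 (plus).
Srsf1: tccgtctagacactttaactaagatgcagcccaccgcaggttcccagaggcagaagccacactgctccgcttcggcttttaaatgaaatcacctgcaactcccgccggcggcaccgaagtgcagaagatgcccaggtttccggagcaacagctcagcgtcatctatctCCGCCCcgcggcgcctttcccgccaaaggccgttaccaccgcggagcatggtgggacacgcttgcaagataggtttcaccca
Sf3b6: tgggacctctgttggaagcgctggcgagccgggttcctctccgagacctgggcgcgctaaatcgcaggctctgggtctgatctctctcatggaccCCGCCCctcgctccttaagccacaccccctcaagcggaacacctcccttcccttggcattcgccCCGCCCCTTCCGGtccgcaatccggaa
U2af1: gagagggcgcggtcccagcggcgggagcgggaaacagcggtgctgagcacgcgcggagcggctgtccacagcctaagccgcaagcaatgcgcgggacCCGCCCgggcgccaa
Srsf7: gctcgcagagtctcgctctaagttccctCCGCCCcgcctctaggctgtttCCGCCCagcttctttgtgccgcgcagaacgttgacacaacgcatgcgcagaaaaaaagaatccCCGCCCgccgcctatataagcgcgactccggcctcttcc
Hnrnpu: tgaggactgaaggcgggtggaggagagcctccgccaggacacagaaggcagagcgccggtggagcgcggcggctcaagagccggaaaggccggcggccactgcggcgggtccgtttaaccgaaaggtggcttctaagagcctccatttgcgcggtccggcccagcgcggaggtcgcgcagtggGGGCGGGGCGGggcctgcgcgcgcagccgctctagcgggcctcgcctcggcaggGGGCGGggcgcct
Srsf6: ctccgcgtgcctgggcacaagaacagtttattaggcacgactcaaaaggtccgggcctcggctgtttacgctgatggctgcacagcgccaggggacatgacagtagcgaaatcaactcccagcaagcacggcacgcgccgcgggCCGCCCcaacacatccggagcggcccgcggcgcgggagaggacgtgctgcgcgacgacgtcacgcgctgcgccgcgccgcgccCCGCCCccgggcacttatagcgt
All 6 stretches hold the SP1 letters at least 1 time, and the Sf3b6 stretch holds the ETS letters as well. Snrpc was also lower in the RNAi embryos under every setting tried, but its promoter is not shown. The Snrpc window holds the ETS letters and not the SP1 letters. RefSeq listed a promoter for 47 of the 55 genes. In the 250 bases before the first start listed, the SP1 letters stood in 33 of 47 (70.2%), against 32.9% of the 27025 genes with a listed promoter. The ETS letters stood in 15 of 47 (31.9%), against 7.05% of all, and CCAAT, the NF-Y box, stood in 22 of 47 (46.8%), against 34.5%. TATAAA was found in 5 of 47 (10.6%), against 13% of all. The median GC content of these windows was 60.8%, against 52% for all listed genes. Of the genes lower in RNAi embryos 4 of 15 carried the ETS letters in any listed promoter and 12 of 15 the SP1 letters; of the other tested genes 11 of 31 and 21 of 31 did. These are letter matches and describe the windows only.

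The values are gene read counts that the authors divided by 1 size factor per library, called normalised reads below. Between 21820093 and 26555027 reads per ESC library and between 695524 and 1432566 per embryo library had been assigned to genes, so that 1 embryo read was worth 0.687 to 1.39 normalised reads. The label check gave a summed Zscan4 level of 152 and 212 in the ESC controls against 20005 and 19449 with overexpression (exact permutation test, two-sided, p = 0.333, the smallest that 2 against 2 libraries allow). In embryos the sum was 734 ± 272 (SD, n = 5) in the controls and 229.5 ± 142 (n = 6) with RNAi (exact permutation test over 462 assignments, two-sided, p = 0.013); the groups overlapped, since control 5 had 345 and RNAi 3 and 5 had 379 and 383. The genes studied here took 1.78% and 1.77% of the reads of the ESC controls, 2.08% and 1.85% with overexpression, 0.487 to 0.775% in the embryo controls and 0.278 to 0.564% with RNAi. Since no label states whether replicates were separate cultures or embryo pools, p-values here cover the spread among these libraries alone, which may be technical.

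In 2-cell embryos the question was which of these genes differ when Zscan4 is silenced. The RNAi libraries held less mRNA of 17 of the 54 genes that could be tested (31.5%), against 12% of the 16417 genes tested in all, and more of 1, Sf3a2 (6.13% of all genes were higher, and 18.2% passed in either direction). The genes that fell include the SR proteins Srsf1 and Srsf7, the small U2AF subunit U2af1, the branch-point protein Sf3b6, the U1 protein Snrpc and the nuclear scaffold protein Hnrnpu, with ratios of group means between 3.14 and 7.13 in favour of the controls. The median log2 fold change was -0.54, with 41 genes below 0 and 13 above (34 below with quantile normalisation and 36 with edgeR), against a median of -0.03 over all genes tested. Scaling each library to its total moved these medians to -0.64 and -0.11, and quantile normalisation moved them to -0.32 and 0.14; of all calls 33.8% were higher, 26.4% with total scaling and 46.5% with quantile normalisation. A gene passed when limma on log2(normalised reads + 1) gave a Benjamini-Hochberg adjusted p under 0.05 over all genes tested; on this scale the pseudocount of 1 pulls the fold change of low genes towards 0, while libraries with few or no reads weigh more than in the ratio of means. In bulk libraries fewer cells holding a transcript and less of it per cell cannot be told apart. The 5 control and 6 RNAi libraries did not overlap for 5 genes (9.26%), 4 lower and 1 higher, against 7.33% of all genes (4.28% lower and 3.05% higher). Srsf12 failed the filter, with reads only in control 5 and RNAi 5.

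**Figure D1:**
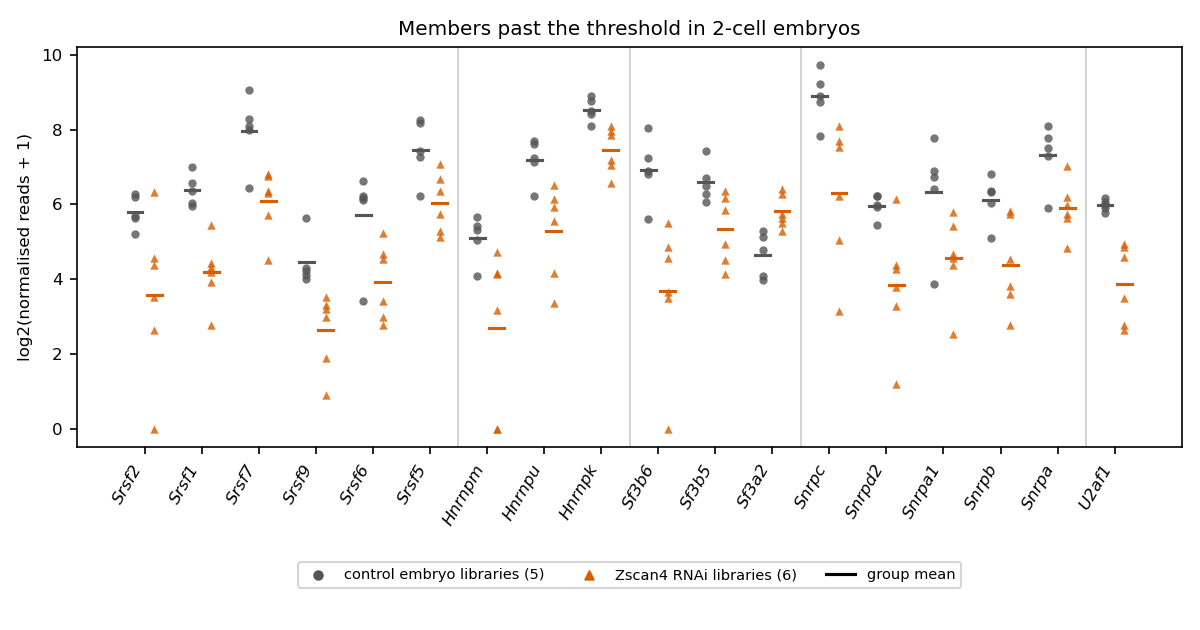
Levels of the 18 genes past the threshold in 2-cell embryos, as log2(normalised reads + 1) on the vertical axis, for 5 control libraries (circles) and 6 Zscan4 RNAi libraries (triangles); bars are group means and vertical lines divide the SR, hnRNP, SF3, snRNP and U2AF genes. In 17 genes the RNAi mean lies lower, Sf3a2 is the exception, and the libraries of the 2 groups do not overlap for Srsf1, Srsf9, Sf3b6, Sf3a2 and U2af1.

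Of the SR protein genes 6 of the 10 tested fell (60%, against 12% of all genes), with a median log2 fold change of -1.60. With quantile normalisation 3 fell, and the difference between families was not tested. Srsf1 (chr11:88047373-88053755, mm10), which binds exonic enhancers and helps recruit U1 and U2AF, stood at 65.4, 126, 80.7, 93.7 and 61.6 normalised reads in controls 1 to 5 and at 5.80 to 42.6, with a median of 18.3, in the RNAi libraries. Every control lay above every RNAi library. The ratio of means was 4.27 (log2 fold change -2.20, SE 0.43, adjusted p = 0.00384, limma). Srsf7 (chr17:80200080-80207307), an SR protein that also takes part in mRNA export, stood at 256, 308, 532, 274 and 86.02 in the controls and at 22.1 to 112, with a median of 79.6, with RNAi. Control 5 lay within the RNAi range and the other controls above it (log2 fold change -1.89, SE 0.44, adjusted p = 0.00782). Srsf9 (chr5:115327177-115333080), a short SR protein, stood at 17.6, 16.2, 48.7, 15.2 and 18.6 in the controls and at 0.868 to 10.4, with a median of 7.58, with RNAi, without overlap (log2 fold change -1.81, SE 0.58, adjusted p = 0.0342). Srsf5 (chr12:80945504-80950507) stood at 171, 303, 287, 153 and 73.3 in the controls and at 33.9 to 135, with a median of 66.7, with RNAi; control 5 was the lowest control and lay inside the RNAi range (log2 fold change -1.42, SE 0.42, adjusted p = 0.0238). The Srsf9 call was lost without any 1 of controls 1 to 4, RNAi 1 or RNAi 6 (adjusted p 0.0566 to 0.108), and the Srsf5 call without control 2, control 3 or RNAi 3 (0.0545 to 0.0769). With all libraries the Srsf9 call was also lost with edgeR (adjusted p = 0.0522) and with limma after quantile normalisation (0.0552).

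Srsf6 (chr2:162931528-162937121) and Srsf2 (chr11:116849901-116853094), the protein SC35 of nuclear speckles, also passed, nearer the threshold. Srsf6 stood at 97.3, 68.6, 70.97, 73.8 and 9.78 in the controls and at 5.80 to 36.9, with a median of 15.9, with RNAi. Control 5 was again among the RNAi values while the other controls lay above them (log2 fold change -1.78, SE 0.58, adjusted p = 0.0379). Srsf2 stood at 51.2, 72.3, 48.7, 76.1 and 36.2 in the controls and ranged from 0 to 79.5, with a median of 15.1, with RNAi; RNAi 2 was higher than every control, and RNAi 3 had no read, which allows a level of up to 3.91 (log2 fold change -2.23, SE 0.74, adjusted p = 0.0421). With edgeR its value was -1.16 (adjusted p = 0.242), with DESeq2 -1.30 (0.157), and without RNAi 3 -1.52. Of 21 alternative settings Srsf6 passed in 13 and Srsf2 in 9, and leaving out any 1 of controls 1 to 4, RNAi 4 or RNAi 6 ended either call (adjusted p 0.065 to 0.101), as did RNAi 1 for Srsf6 (0.066) and RNAi 3 for Srsf2 (0.0675). The Srsf2 locus shares exons with Mettl23 and Mfsd11, which makes its counts uncertain. Srsf11 stood at 46.1, 102, 52.9, 62.05 and 42.03 and at 36.0 to 46.7, with a median of 38.9 (log2 fold change -0.52, SE 0.33, adjusted p = 0.285). Srsf3 (chr17:29032628-29043373), another SR protein with a role in export, did not follow: the controls stood at 146, 112, 109.9, 94.8 and 69.4 and the RNAi libraries at 54.1 to 157, with a median of 102, fully overlapping (log2 fold change -0.11, SE 0.33, adjusted p = 0.849), and the sign of its difference depended on the setting.

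Of the U2AF pair, the small subunit fell and the large one did not pass. U2af1 (chr17:31647081-31658892), which reads the AG at the 3′ splice site, stood at 58.7, 65.7, 70.97, 62.05 and 53.8 in the controls and at 5.22 to 29.5, with a median of 16.9, with RNAi. Its controls were close together and all lay above the RNAi libraries. Of the exonic 50-base words of U2af1 21.7% also occur in other loci, mainly AC102268.2, Gm10232 and Gm18959, so its counts are uncertain. The U2af1 ratio of means was 3.65 (log2 fold change -2.09, SE 0.47, adjusted p = 0.00631). U2af2 (chr7:5062143-5079938), which binds the polypyrimidine tract, was far lower in reads: 7.55, 3.69, 20.9, 5.85 and 6.84 in the controls and 3.91 to 15.6, with a median of 9.94, with RNAi, overlapping (log2 fold change 0.29, SE 0.55, adjusted p = 0.758). The number of U2af1 reads per U2af2 read was 3.40 to 17.8 in the controls and 0.667 to 3.60 with RNAi, a ratio picked after its values were seen, which rests on 3 to 18 U2af2 reads per library.

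Among the SF3 genes 2 fell, 1 rose and 6 did not pass (median -0.42). The shares were 22.2% lower and 11.1% higher, against 12% and 6.13% of all genes, and rest on few genes. Sf3b6 (chr12:4817544-4827659), the small subunit next to the branch-point adenosine, had the lowest log2 fold change of all 54 genes tested. It stood at 112, 266, 118, 151 and 47.9 in the controls and at 0 to 44.2, with a median of 17.2, with RNAi; the groups did not overlap, and RNAi 4 had no read, which allows up to 3.48 normalised reads. The ratio of means was 7.13 (log2 fold change -3.24, SE 0.71, adjusted p = 0.00575). Sf3b5 (chr10:13005343-13009183), a small scaffold subunit, fell from 101 ± 41.9 (SD, n = 5) to 46.3 ± 27.2 (n = 6) with overlap (log2 fold change -1.26, SE 0.42, adjusted p = 0.0435), and passed in 8 of 21 settings; without any 1 of controls 1 to 4 or RNAi 3, 4 or 6 its adjusted p was 0.0562 to 0.13.

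Sf3a2 (chr10:80798198-80804924), a subunit of SF3A, went the other way. It stood at 15.9, 14.8, 26.4, 33.95 and 38.1 in the controls and at 38.5 to 84.8, with a median of 50.7, with RNAi, so that every RNAi library lay above every control. The ratio of means was 2.23 in favour of RNAi (log2 fold change 1.16, SE 0.38, adjusted p = 0.0383). It passed in 12 of 21 settings, and without any 1 of controls 1 to 4 or RNAi 3, 5 or 6 the adjusted p was 0.0503 to 0.106. Its exons overlap Plekhj1. Sf3b1 (chr1:54985169-55027481), the large branch-point subunit, stood at 169, 179, 134, 157 and 79.2 and at 42.95 to 255, with a median of 111 (log2 fold change -0.42, SE 0.40, adjusted p = 0.499), and Sf3a1 at 38.6, 35.4, 27.8, 62.05 and 19.6 and at 15.6 to 41.7, with a median of 21.03 (log2 fold change -0.56, SE 0.41, adjusted p = 0.359). Sf3b3, the lowest SF3 gene per kilobase of exon, stood at 10.9, 13.3, 32.01, 17.6 and 23.5 and at 5.80 to 58.7, with a median of 29.3 (log2 fold change 0.39, SE 0.52, adjusted p = 0.638). In all 3 the groups overlapped.

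Of the 13 snRNP genes 5 fell (38.5%, against 12% of all genes): the U1 proteins Snrpc and Snrpa, the U2 protein Snrpa1 and the Sm proteins Snrpd2 and Snrpb (median over the 13, -0.21). The pseudogene Snrpert, counted among the 13, did not pass (log2 fold change 0.24, adjusted p = 0.736, limma), and its counts are uncertain. Snrpc (chr17:27838150-27851968), the U1 protein that steadies the pairing with the 5′ splice site, stood at 430.2, 845, 473, 602 and 229 in the controls and at 7.82 to 274, with a median of 130.2, with RNAi; RNAi 2 reached above control 5 and the other controls lay above all RNAi libraries (log2 fold change -2.59, SE 0.65, adjusted p = 0.0112). Snrpa (chr7:27187005-27196271), the U1 protein that binds a loop of U1 RNA, stood at 157, 217, 273, 183 and 58.7 in the controls and at 27.4 to 129.6, with a median of 57.4, with RNAi. Control 5 lay within the RNAi range (log2 fold change -1.42, SE 0.41, adjusted p = 0.0229). Of the exonic 50-base words of Snrpa 20.2% also occur in other loci, mainly Vmn2r110 and BC024978. Snrpa1 (chr7:66059003-66074587), the U2 protein A′, fell from 108 ± 73.8 (SD, n = 5) to 28.1 ± 17.6 (n = 6), with control 5 at 13.7 inside the RNAi range (log2 fold change -1.78, SE 0.61, adjusted p = 0.0466), and passed in 9 of 21 settings; without any 1 of controls 1 to 4 or RNAi 1, 3, 5 or 6 its adjusted p was 0.0631 to 0.142.

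The Sm ring genes did not move together. Snrpd2 (chr7:19149722-19153542) stood at 62.9, 59.8, 73.8, 73.8 and 43.01 in the controls and at 1.30 to 70.5, with a median of 15.7, with RNAi; RNAi 2 lay among the controls and the other 5 below them (log2 fold change -2.12, SE 0.60, adjusted p = 0.0209). Snrpb (chr2:130171414-130179403) stood at 64.6, 79.7, 80.7, 111 and 33.2 and at 5.80 to 55.8, with a median of 17.6, with RNAi 2 and RNAi 5 above control 5 (log2 fold change -1.74, SE 0.52, adjusted p = 0.0251). The remaining Sm genes did not pass. Snrpd1 stood at 114, 201.4, 202, 126 and 63.5 and at 35.2 to 151, with a median of 73.4, overlapping (log2 fold change -0.92, SE 0.40, adjusted p = 0.118). The log2 fold change was 0.88 for Snrpd3 (adjusted p = 0.179), 0.15 for Snrpe (0.776), 0.47 for Snrpf (0.39) and 0.34 for Snrpg (0.354). Snrpg had the highest level per kilobase of exon of the 55 genes in the controls and stood at 411, 477, 605, 519 and 375 there and at 456 to 797, with a median of 599, with RNAi. Snrpn (chr7:59982495-60140219), an imprinted gene whose SmN protein can stand in for SmB, stood at 99.8, 195, 139, 101 and 138 and at 67.2 to 146, with a median of 121, overlapping (log2 fold change -0.21, SE 0.30, adjusted p = 0.656). With edgeR neither Snrpd2 (-1.37, adjusted p = 0.11) nor Snrpb (-1.34, 0.0842) passed. Without 1 library the Snrpd2 call by limma was lost for controls 3 and 4 (adjusted p 0.0516 and 0.053). The Snrpa call was lost for controls 2 to 4 and RNAi 3 (0.0528 to 0.0721) and the Snrpb call for controls 2 to 4, RNAi 4 and RNAi 6 (0.0506 to 0.0754).

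Of the hnRNP genes 3 of 20 fell (15%), near the 12% over all genes. Hnrnpu (chr1:178321108-178337797), a large protein that binds RNA and chromatin, stood at 207, 196, 150.3, 139 and 74.3 in the controls and at 9.29 to 91.01, with a median of 53.2, with RNAi. Control 5 was the lowest control and RNAi 2 lay above it (log2 fold change -1.91, SE 0.49, adjusted p = 0.0127). Exons of Hnrnpu overlap Cox20, those of Hnrnpk overlap Rmi1 and those of Hnrnpm overlap March2, so these counts are uncertain. Hnrnpk (chr13:58391142-58403343), which binds C-rich RNA, stood at 474, 345, 359, 432 and 272 and at 93.9 to 272, with a median of 188, the groups touching at control 5 and RNAi 5 (log2 fold change -1.08, SE 0.31, adjusted p = 0.0218, limma). By limma the adjusted p of Hnrnpk was 0.0584 without control 1 or control 4 and 0.0503 without RNAi 3. By edgeR on all libraries Hnrnpk did not pass (-0.90, adjusted p = 0.0659). Hnrnpm (chr17:33646233-33686860) fell from 35.9 ± 12.9 (SD, n = 5) to 11.2 ± 10.3 (n = 6), with no read in RNAi 1 and RNAi 3 (log2 fold change -2.41, SE 0.79, adjusted p = 0.039), and passed in 10 of 21 settings, with -1.55 and an adjusted p of 0.148 by edgeR; without any 1 of controls 2 to 5 or RNAi 1, 3 or 4 its adjusted p was 0.0509 to 0.0947. Hnrnpa2b1 (chr6:51460932-51469894), a partner of Hnrnpa1 in the A/B group, was the nearest gene outside the threshold: 130.0, 188, 216, 160.4 and 109 in the controls and 35.2 to 207, with a median of 66.2, with RNAi (log2 fold change -1.10, SE 0.38, adjusted p = 0.0513). Hnrnpa1 (chr15:103240432-103246692), the highest hnRNP gene per kilobase of exon in the controls, stood at 326, 305, 266, 297 and 258 and at 113 to 259, with a median of 196, where 1 RNAi library lay just above the lowest control (log2 fold change -0.61, SE 0.27, adjusted p = 0.126). The lowest per kilobase of the genes that passed the filter was Hnrnpll, at 10.1, 16.97, 0, 8.20 and 15.6 in the controls and 0.82 to 19.6, with a median of 7.50, with RNAi, levels of a few reads.

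**Figure D2:**
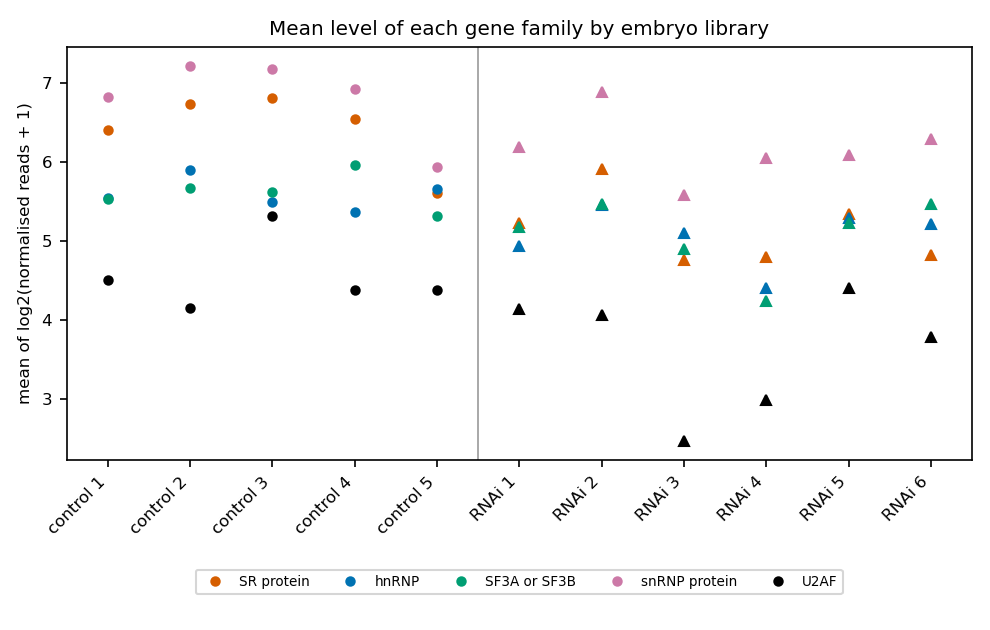
Mean of log2(normalised reads + 1) over the tested genes of each family (vertical axis) in each embryo library (horizontal axis; circles, controls; triangles, RNAi). For the SR genes controls 1 to 4 lie at 6.41 to 6.81, control 5 at 5.61 and the RNAi libraries at 4.76 to 5.90; for the hnRNP genes control 5 lies at 5.66, within the range of the other controls.

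Control 5 stood apart from the other controls for some families and not for others. Its mean log2 level was 5.61 for the SR genes and 5.94 for the snRNP genes, where controls 1 to 4 had 6.41 to 6.81 and 6.82 to 7.22, and 5.66 for the hnRNP genes, where they had 5.37 to 5.90. It also had the lowest Zscan4 sum of the controls and the lowest summed level of 15 markers of the 2-cell stage (1928, against 2769 to 4210 in controls 1 to 4 and 820 to 2241 with RNAi; 0 or 1 of them had no read in a library). The marker list names Zscan4c, Zscan4d and Zscan4f, so the marker sum and the Zscan4 sum share genes. Without control 5 limma called 19 genes lower and 1 higher. Without 1 other library the number lower was 11, 8, 7 and 7 for controls 1 to 4, 10 for RNAi 3 and 11 for RNAi 6. Without control 1, 2, 3 or 4 in turn that is 20.4, 14.8, 13 and 13% of the 54, against 9.19, 7.39, 8.24 and 7.6% of all genes lower in the same fits; Sf3a2 was not called without any 1 of controls 1 to 4 or RNAi 3, 5 or 6. The median log2 fold change of the 54 genes stayed between -0.37 and -0.61 when any 1 library was left out.

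Other marker lists moved with the groups. The summed level of 16 oocyte transcripts was 11097 to 18153 in the controls and 37029 to 59779 with RNAi; 6 of the 16 were higher, none was lower, and their median log2 fold change was 1.14. Of the 15 markers of the 2-cell stage 7 were lower and none higher (median -1.39), and 2 of 8 ESC markers were lower, their sum being 516 to 1005 in the controls and 237 to 392 with RNAi. Markers of other cells were low in both groups: cumulus and granulosa markers summed to 1.68 to 16.97 in the controls and 4.34 to 12.6 with RNAi, with 6 to 9 of 10 at 0, fibroblast markers to 11.1 to 25.2 and 8.68 to 40.6, with 4 to 8 of 10 at 0, and blood markers to 28.5 to 70.4 and 7.81 to 146, with 4 or 5 of 6 at 0. The 2-cell list names Zscan4c, Zscan4d and Zscan4f, of the family targeted by RNAi, so its fall is not independent of the treatment. The part of the oocyte and 2-cell transcripts in the splicing gene results was not tested.

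In ESCs the question was the reverse, what differs when Zscan4 is raised. Of the 53 genes tested (Snrpert had no read in any ESC library) 7 were higher with overexpression (13.2%), against 11.7% of the 20888 genes tested in all, and 3 were lower (5.66%), against 11.4%; in either direction 23.2% of all genes passed. The higher share is near that of all genes. Srsf6, Sf3b4 and Snrpn rose over 3-fold, Sf3a3, Srsf3, Srsf2 and Hnrnpa0 rose 1.75-fold to 2.07-fold, and Hnrnph3, Srsf12 and Hnrnpa1 fell. The median log2 fold change was 0.31, with 37 genes above 0 and 16 below (33 and 20 with quantile normalisation), against a median of -0.02 over all genes. In 39 of the 53 (73.6%) the 2 control and 2 overexpression libraries did not overlap, 29 higher and 10 lower, against 68.8% of all genes (34.2% higher and 34.6% lower).

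**Figure D3:**
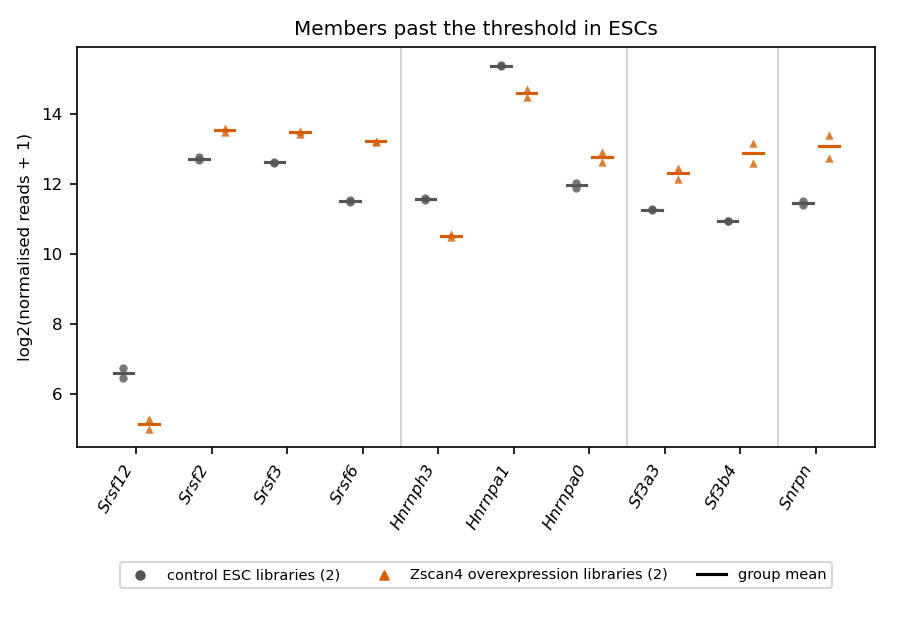
Levels of the 10 genes past the threshold in ESCs, as log2(normalised reads + 1) on the vertical axis, for 2 control (circles) and 2 Zscan4 overexpression libraries (triangles); bars are group means and vertical lines divide the SR, hnRNP, SF3 and snRNP genes. The 2 controls lie close together for most genes and furthest apart for Srsf12 (106 and 86.1 normalised reads), and the overexpression libraries differ most for Sf3b4 and Snrpn.

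Among the SR genes, Srsf6 stood at 2968 and 2855 normalised reads in the controls and at 9463 and 9543 with overexpression. The libraries of each group were close together, and the ratio of means was 3.26 (log2 fold change 1.71, SE 0.15, adjusted p = 0.0121, limma). Srsf3 stood at 6387 and 6237 in the controls and 11739 and 11099 with overexpression. Srsf2 had 6969.9 and 6559 against 12438 and 11456. Both were higher in each overexpression library, with log2 fold changes of 0.85 (SE 0.15, adjusted p = 0.0292) and 0.82 (SE 0.16, adjusted p = 0.0337). Srsf12 (chr4:33208991-33233340), the lowest SR gene per kilobase of exon, fell from 106 and 86.1 to 38.3 and 31.00 (log2 fold change -1.44, SE 0.32, adjusted p = 0.0423). It passed in 9 of 15 settings, and not without overexpression 2 (0.0645), with voom (0.179), without a filter (0.0519), with quantile normalisation (0.0508) or without either control, where no gene passed. Srsf1 stood at 5235 and 4989 and 11483 and 7407, without overlap, but did not pass (log2 fold change 0.85, SE 0.26, adjusted p = 0.0817). With the replicate number as a block Srsf3 and Srsf2 no longer passed (adjusted p = 0.0662 and 0.0779).

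Of the SF3 genes 2 of 9 rose (22.2%, against 11.7% of all genes), a share that rests on few genes. Sf3b4 (chr3:96172332-96177564), which holds RNA beside the branch point, stood at 1957 and 1946 in the controls and at 6216 and 9131 with overexpression, where the second library was well above the first. The ratio of means was 3.93 (log2 fold change 1.95, SE 0.24, adjusted p = 0.017). Of its exonic 50-base words 45.3% also occur in Gm7935 or the overlapping Gm17690, so its counts are uncertain. Sf3a3 (chr4:124714776-124732460) stood at 2489 and 2444 and at 4543 and 5657 (log2 fold change 1.04, SE 0.18, adjusted p = 0.0282). Sf3b1 did not pass, at 28156 and 28218 against 19827 and 11792 (log2 fold change -0.88, SE 0.30, adjusted p = 0.102), with the second overexpression library the lower. Sf3b4 reads per Sf3b1 read were 0.0695 and 0.0690 in the controls and 0.314 and 0.774 with overexpression, a ratio picked after its values were seen. The exon lengths are 2162 bases for Sf3b4 and 11370 for Sf3b1, and the 2 overexpression libraries differed with gene length, as given below. In embryos this ratio overlapped between the groups, at 0.259 to 0.827 in the controls and 0.185 to 0.676 with RNAi. Sf3a1 stood at 7206 and 7060.4 and 11206 and 10564, just short of the threshold (log2 fold change 0.61, SE 0.15, adjusted p = 0.0562). Sf3b6, the lowest SF3 gene per kilobase of exon in the controls, stood at 1390 and 1365 and 1907 and 2760 (log2 fold change 0.74, SE 0.23, adjusted p = 0.0878).

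Among snRNP genes Snrpn alone passed (8.33% of those tested, against 11.7% of all genes higher). It stood at 2679 and 2901 in the controls and at 6876 and 10876 with overexpression, a ratio of means of 3.18 (log2 fold change 1.63, SE 0.27, adjusted p = 0.0256); its exons overlap Snurf, which is made from the same transcript. Its near relative Snrpb stood at 4329.8 and 4384 and 5665 and 9840.2 (log2 fold change 0.78, SE 0.31, adjusted p = 0.136). Reads of Snrpn per read of Snrpb went from 0.619 and 0.662 to 1.21 and 1.11. All 12 snRNP genes tested had a log2 fold change above 0 (median 0.43), but without overexpression 2 Snrpa1 (-0.29), Snrpf (-0.21), Snrpc (-0.17) and Snrpe (-0.01) were below 0, and with quantile normalisation Snrpa1 (-0.05) and Snrpf (-0.01) were. Snrpf, the highest snRNP gene per kilobase of exon in the controls, stood at 3097 and 2871 and 2575 and 3867, and Snrpb2, the lowest, at 1475 and 1428 and 1748 and 2182; neither passed. Of the exonic 50-base words of Snrpf 89.5% also occur in other loci, mainly Ccdc38 and Gm13092, so its rank is uncertain. Snrpd1 stood at 2869.7 and 2791 and 3153 and 4036 (log2 fold change 0.33, SE 0.19, adjusted p = 0.258). Neither U2AF gene passed: U2af1 had 3828 and 3992 in the controls against 5476 and 7841 with overexpression (adjusted p = 0.0819), and U2af2 8441 and 8428 against 10236 and 13716 (adjusted p = 0.157).

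The hnRNP genes went both ways, with 9 above 0, 10 below and a median of -0.03. Hnrnph3 (chr10:63014664-63024217), of the group that binds G-rich RNA, stood at 3121 and 2965 in the controls and at 1514 and 1432 with overexpression. Both groups were tight, and the ratio of means was 2.07 in favour of the controls (log2 fold change -1.05, SE 0.15, adjusted p = 0.0214). Hnrnpa1, an antagonist of SR proteins and the highest of the 54 genes per kilobase of exon in the controls, fell from 42156 and 43054 to 26638 and 22798 (log2 fold change -0.79, SE 0.19, adjusted p = 0.0492); 28.2% of its exonic 50-base words also occur in other loci, mainly Gm10052, Gm7729 and Gm5643. Hnrnpa0 (chr13:58125879-58128556), an intronless member of the A/B group, rose from 3782 and 4196 to 6323 and 7655 (log2 fold change 0.80, SE 0.18, adjusted p = 0.0446). The calls of Hnrnpa1 and Hnrnpa0 lay close under the threshold and passed in 8 and 9 of 15 settings; with the replicate block their adjusted p was 0.139 and 0.0737. Hnrnpm lay just outside it (5993 and 6010.0 against 12697 and 9449, log2 fold change 0.87, SE 0.21, adjusted p = 0.0502), as Hnrnpu did further off (22309.8 and 21535 against 40856 and 30355, log2 fold change 0.68, SE 0.22, adjusted p = 0.0925). Hnrnpa2b1 (24305 and 24194 against 27080.3 and 20913) and Hnrnpk (31539 and 30475 against 31447 and 21652) did not differ beyond the spread of the overexpression libraries (adjusted p = 0.936 and 0.5). Hnrnpr, the lowest hnRNP gene per kilobase of exon, stood at 2497 and 2471 against 3089 and 2166 (log2 fold change 0.06, SE 0.23, adjusted p = 0.873).

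The 2 overexpression libraries differed from each other far more than the controls did. The chi-square per degree of freedom between replicates was 127.7 for overexpression and 2.69 for the controls. The difference followed gene length: over the 53 genes, overexpression 2 minus overexpression 1 on the log2 scale had a Pearson r of -0.70 and a Spearman rho of -0.74 with the log2 exon length, given as a description, since all points share the same 2 libraries. All 12 snRNP genes, whose median exon length of 2388 bases compares with 5898 for the hnRNP genes, were higher in overexpression 2 (median difference 0.67), as were 4 of 19 hnRNP genes (median -0.31) and 4 of 11 SR genes (median -0.12). Over all genes the median difference went from 0.39 in the quartile of shortest genes to -0.45 in that of the longest, and the median log2 fold change against the controls from 0.14 to -0.21. The part of this in the fold changes of short and long splicing genes was not tested. Without control 1 or control 2 limma, the tool used for these refits, called no gene at all (3617 and 3646 had an unadjusted p under 0.05, 2 and 4 of the splicing genes among them); without overexpression 1 it called 33 higher and 15 lower of the 53, and without overexpression 2 it called 26 and 8, among 10855 and 9004 genes in all.

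**Figure D4:**
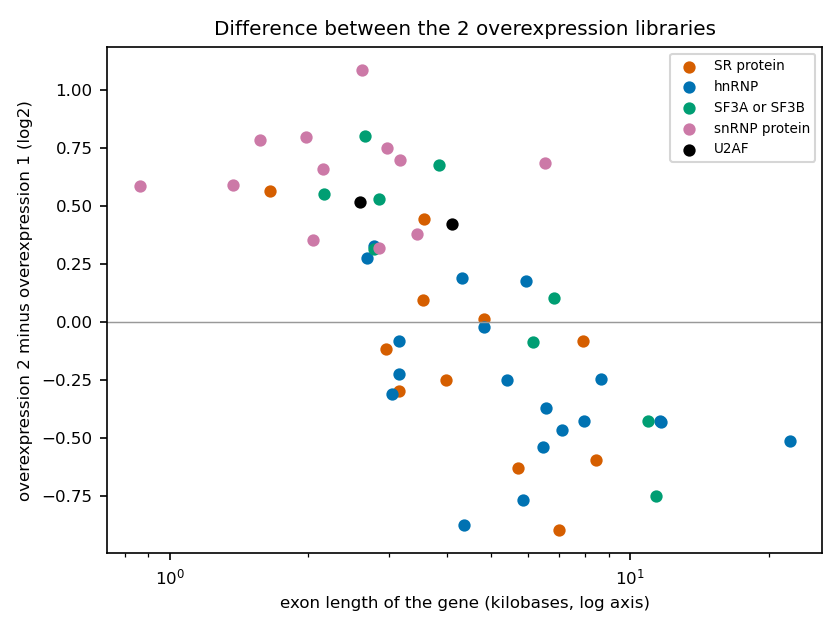
Difference between the 2 ESC overexpression libraries for each of the 53 genes tested (vertical axis, overexpression 2 minus overexpression 1 on the log2 scale) against exon length (horizontal axis, kilobases, log scale), coloured by family. Of the 26 shorter genes (861 to 3561 bases) 21 lie above 0 and of the 27 longer ones 20 lie below it; all 12 snRNP genes lie above.

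Marker lists also moved in the ESCs. The summed level of 8 ESC markers was 89597 and 89430 in the controls and 103433 and 142084 with overexpression (1 higher, none lower), that of 15 markers of the 2-cell stage 155 and 201 against 17703.5 and 18350 (10 higher), and that of 9 fibroblast or feeder markers 5327 and 5158 against 10042 and 13092 (3 of the 7 tested higher, 1 lower; 3 at 0 in the controls and 1 with overexpression). Cumulus and granulosa markers summed to 198 and 194 against 654 and 448, and oocyte transcripts to 2748 and 2580.0 against 3190 and 5050.05, and blood markers to 35.2 and 30.9 against 13.7 and 27.4. The 2-cell list names Zscan4c, Zscan4d and Zscan4f, so its sum is not independent of the overexpressed family. The sum over all Zscan4 genes was 152 and 212 in the controls against 20005 and 19449 with overexpression. The part of these marker lists in the results above was not tested.

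The experiments share no libraries, so their values can be set side by side for the 52 genes tested in both. Of these, 27 were above 0 in ESCs and below 0 in embryos, 10 above 0 in both, 13 below 0 in both and 2 below 0 in ESCs and above 0 in embryos. Srsf2 and Srsf6 passed the test in both, higher with overexpression (0.82 and 1.71) and lower with RNAi (-2.23 and -1.78). They are 2 of the 10 genes called in ESCs and 2 of the 18 called in embryos. Of all 13072 genes tested in both 28.8% were above 0 in ESCs and below 0 in embryos, and 4.67% passed in both; for the splicing genes the shares were 51.9% and 3.85%, where 71.2% were above 0 in ESCs and 76.9% below 0 in embryos, against 51.2% and 52.7% of all genes. Of the 7 genes that rose in ESCs the other 5 did not pass in embryos, at -0.66 for Sf3b4, -0.21 for Snrpn, -0.15 for Sf3a3, -0.11 for Srsf3 and 0.88 for Hnrnpa0. Of the 17 that fell in embryos 15 were above 0 in ESCs, and Hnrnpk (-0.25) and Srsf9 (-0.01) were below it. Sf3a2, which rose in embryos, was above 0 in ESCs too (0.78). The difference between the 2 experiments was not tested, because the tables were normalised separately.

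**Figure D5:**
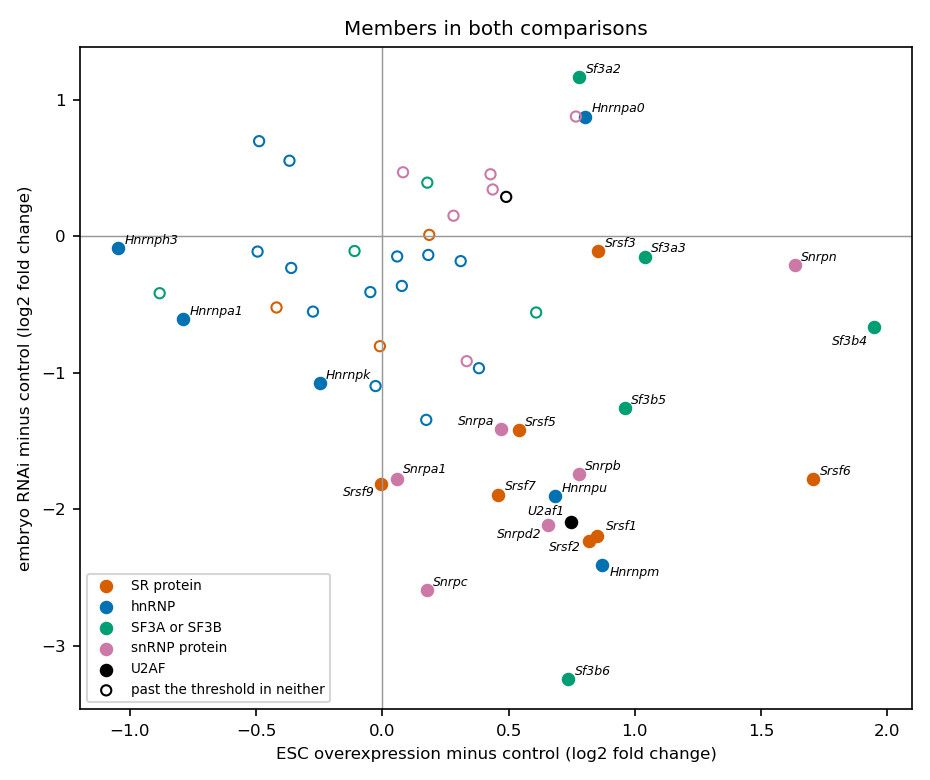
Log2 fold change of each of the 52 genes in ESCs (horizontal axis, overexpression minus control) and in 2-cell embryos (vertical axis, RNAi minus control); filled points passed the threshold in at least 1 experiment and carry a name, open points in neither. At the lower right lie 27 genes, with Srsf6 and Srsf2 past the threshold in both.

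The rest of the splicing machinery was read from 3 lists of other spliceosome subunits, splicing regulators with the SR protein kinases, and the exon junction complex with its partners. In embryos 21 of 121 tested were lower and 1 was higher (17.4% and 0.826%, against 12% and 6.13% of all genes; median -0.52). Of the 67 spliceosome subunits 9 were lower (13.4%, near the share of all genes) and 1 higher, of 42 regulators 8 were lower and of 12 exon junction genes 4. By the smallest p, Dhx8, a helicase that releases the spliced mRNA, fell from 132 ± 41.9 (SD, n = 5) to 17.9 ± 12.96 (n = 6), a log2 fold change of -3.06 (SE 0.47, adjusted p = 0.00131). The log2 fold change was -2.57 for Pabpn1, which binds new poly(A) tails (adjusted p = 0.0027), -2.38 for Rbm8a of the exon junction core (0.00409) and -2.70 for the spliceosome subunit Prpf38a (0.00458). Snrnp27 alone rose, from 60.8 ± 15.7 to 148 ± 51.7 (log2 fold change 1.24, adjusted p = 0.0127).

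In ESCs 17 of 120 such genes were higher and 5 lower (14.2% and 4.17%, against 11.7% and 11.4% of all genes; median 0.07): 9 higher and 1 lower of 65 spliceosome subunits, 6 higher and 4 lower of 43 regulators and 2 higher of 12 exon junction genes. Esrp2, an epithelial splicing regulator, rose from 102 ± 5.43 (SD, n = 2) to 487 ± 29.4 (n = 2), a log2 fold change of 2.24 (adjusted p = 0.0129). Prpf31, of the tri-snRNP, rose by 1.72 on the log2 scale (0.015), Mbnl3, of the muscleblind family, by 1.98 (0.0207) and Magoh, of the exon junction core, by 1.09 (0.0239). Those that fell were led by Clk4 (-1.73, adjusted p = 0.0155) and Clk1 (-1.31, 0.0188), kinases that phosphorylate SR proteins, with Sugp2 (-1.15, 0.0187) and Snrnp48 of the minor spliceosome (-1.24, 0.021). Clk2, of the same kinase family, rose (0.82, 0.0337), and Clk3 did not pass (-0.73, 0.0606), both named after their values were seen. Clk4 and Clk1 were also lower in the RNAi embryos (-1.56, adjusted p = 0.024, and -1.42, 0.0347), named there after their values were seen.

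The gene models themselves differ by family. GENCODE vM21 annotates a transcript subject to nonsense-mediated decay for 26 of the 54 protein-coding genes studied (48.1%), against 20.8% of the 22028 protein-coding genes: 9 of 11 SR genes, 10 of 20 hnRNP genes, 4 of 12 snRNP genes, 1 of 9 SF3 genes and both U2AF genes. A transcript with a retained intron is annotated for 40 of 54 (74.1%), against 41.4%. The deposited counts are per gene and do not separate these isoforms.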

How the data were processed

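Per the submitters' processing notes, the tools were Trimmomatic, HISAT2 and featureCounts and the build was mm10; no version, annotation, strand or multi-mapping setting was given in the sources used here. For each experiment the authors deposited a table of normalised signal: every value was a whole multiple, within 0.01 of 1 read, of 1 step per library (100% of values), so whole reads were recovered for the count tests. These are counts divided by size factors, a unit the design had not named, and were tested as normalised values. As each table was normalised on its own, levels are compared within it only. The embryo control columns are numbered differently from the labels and only name libraries.

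Genes reaching 1 normalised read in 2 or more ESC libraries, or 5 or more embryo libraries, were tested with limma 3.58.1 (trend) on log2(value + 1). The threshold was 0.05 after Benjamini-Hochberg adjustment over all genes tested, each experiment on its own libraries. In simulated counts the spread among replicates was set by hand and was the same in both groups. The changed genes there had a mean of at least 10 normalised reads. The fits recovered 12% of 2-fold and 78% of 4-fold changes in embryos. In ESCs they recovered 42% and 98%. The real overexpression libraries differed from each other far more than the controls did, and some genes lay lower, so these rates may not hold here. A gene that did not pass can still differ. Alternatives were pseudocounts 0.5 and 4, no filter or a filter at 10, total, TMM and quantile scaling, edgeR 4.0.16, DESeq2 1.42.0, voom with quality weights, leaving out each library (same genes tested), and, in ESCs, a replicate block. Positions, exon lengths and shared 50-base words are from GENCODE vM21. Without strand information overlapping genes are uncertain, and not every overlap is named. Replicates differed by more than sampling noise. The genes studied and the gene lists were chosen with earlier results of these data known. Values per library are given for up to 12 genes per experiment past the threshold in order of p, the highest and lowest gene per kilobase of each family, and 14 genes with a textbook role; Srsf6, Sf3a2, Hnrnpm, Sf3b5 and Snrpa1 in embryos, Hnrnpm, Clk2 and Clk3 in ESCs and the ratios were named after their values were seen. Of the other splicing genes the 4 with the smallest p in each direction are named. U2af1l4, which stands for 2 genes in the ESC table, was left out there.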

Additional observations from a re-analysis of the deposited data

Results flagged for a closer look

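In 5 of the 62 groups of libraries examined, 1 library lay far from the others of its group by Dixon's criterion. A rate of 1 in 20 would give about 3.1, but that rate assumes normally distributed values. The gene levels were not put on a log scale here and the groups share libraries, so the rate may not hold. RNAi 2 stood high for Hnrnpa2b1 (207 normalised reads), Snrpd2 (70.5) and Srsf2 (79.5). Control 3 stood high for Srsf9 (48.7) and U2af2 (20.9). The U2af2 value rests on 15 reads.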

How the results depend on the processing

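For the 25 genes given per library in ESCs and 30 in embryos, 375 and 629 values under alternative settings were compared: 298 and 517 kept their direction and side of the threshold, 35 and 93 lost a call, 36 and 8 gained one and 6 and 11 changed sign. In ESCs the number of genes lower was 1 without a filter and with quantile normalisation, and the number higher was 12 with DESeq2. Leaving out 1 library moved the ESC counts between 0 and 10855 for all genes, 0 and 33 for splicing genes higher and 0 and 15 lower; the 0s came without control 1 or control 2, where the lone control is assumed to vary like the overexpression group. Of all ESC calls 50.65% were higher, and 62.48% with voom. With the replicate block limma called 6024 genes (4843 without it), 5 splicing genes higher and 2 lower. Over the genes tested, the deviations of libraries with the same number had a correlation of -0.00719. With 2 libraries per group this cannot decide whether libraries of the same number were handled together. No paired analysis was possible for embryos because the control columns carry other numbers than the labels. In embryos no gene was higher without a filter and with total scaling, and 11 were lower with quantile normalisation and 10 with edgeR. Leaving out 1 library gave 1730 to 3578 genes, 7 to 19 splicing genes lower and 0 to 1 higher. Over all splicing genes tested, at most 11 changed sign under 1 setting in ESCs (without overexpression 2; 4 with quantile normalisation) and at most 7 in embryos (quantile normalisation). Among the genes given per library, signs changed in ESCs with quantile normalisation for Hnrnpr (-0.0061) and Snrpf (-0.0129). Without 1 ESC library the log2 fold change ranged from -0.2135 to 0.1593 for Hnrnpa2b1, -0.5178 to 0.0205 for Hnrnpk, -0.1976 to 0.3144 for Hnrnpr and -0.2115 to 0.3749 for Snrpf. In embryos signs changed for Hnrnpll with quantile normalisation (0.0266) and voom (0.1773), and for Srsf3 with quantile normalisation (0.0679) and edgeR (0.0165); without 1 library the values ranged from -0.8576 to 0.2873 for Hnrnpll and from -0.2504 to 0.0548 for Srsf3. The cause was not tested. At the depth of the embryo libraries genes of a few reads, such as Hnrnpa0 and U2af2, have values of low precision.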
